A study of Mus musculus with 77 samples.

Results

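Voltage-gated and potassium channels form the set of genes described here. Members were taken by symbol from the table of read counts: every potassium channel gene whose symbol starts with Kcn, every subunit of the voltage-gated Ca2+ channels (Cacna, Cacnb and Cacng) and every pore or beta subunit of the voltage-gated Na+ channels (Scn followed by a number and a or b). Kcnip1 to Kcnip4 and Kcnj11 were left out, as were pseudogene and antisense symbols, and 129 of the 46078 genes remained. Of these 129 members, 93 were detected in enough libraries to be tested at 2 days and 66 at 8 days, and 4 members (Kcnj1, Kcnj3, Kcnk15 and Kcnv1) had no read in any library.

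The data are RNA-seq of ductal organoids, three-dimensional cultures of duct cells, from the pancreas of C57BL/6 mice. Neurogenin3 (Ngn3, gene symbol Neurog3) is the transcription factor that starts endocrine differentiation in the pancreas. At 2 days of transgene induction there were 3 groups of sorted GFP+ cells: organoids carrying a vector with GFP only, organoids carrying GFP with wild-type Ngn3 (WT Ngn3), and organoids carrying GFP with 6S-A Ngn3, a form in which serines that are phosphorylated were changed to alanine. At 8 days there were 4 groups: WT Ngn3 cells, 6S-A Ngn3 cells, and cells without reporter color (no-color) from each of these 2 kinds of organoids. The Ngn3 vectors were lentiviral and switched on by a tetracycline-controlled transactivator, and the no-color cells came from the same infected cultures. The control of 2 days expressed GFP and the control of 8 days did not, so that a change of the controls with time and a change of the kind of control cannot be told apart. Each library was a pool of 50 cells, and each group had 3 biological replicates. The replicates of 2 days were made of 6 technical repeats each (18 libraries per group). At 8 days replicates 1 and 2 had 2 or 3 technical repeats each, and replicate 3 had 1 in every group. After the limits on libraries, replicate 2 of WT Ngn3 at 8 days also had 1. At 8 days replicate 3 was grown at passage 5, and all other replicates of both days were at passage 2. Passage 5 therefore held 1 replicate per group and gave no comparison within passage.

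Of 77 libraries, 76 passed the limits on spike-ins, reads and detected genes, and technical repeats were summed within each replicate. The summed replicates held 17757303 to 26627347 reads on genes at 2 days and 2397470 to 17919627 at 8 days, so that 3 reads, taken as the limit of detection, corresponded to 0.109 to 0.157 CPM (reads of a gene per 1000000 normalized reads) at 2 days and to 0.18 to 1.73 CPM at 8 days. The libraries carried no molecular identifiers, and all counting intervals and limits below cover counting error only. Within replicates 2 and 3 of 2 days, technical repeats 2 and 3 were closer to each other than any other repeats (6 of 148 pairs of pools, whose chi-square per gene was 1.59 to 2.35, while that of the other 142 pairs was 5.21 to 55.7), and since repeats were summed this did not change the number of replicates. Neurog3, counted from transgene and endogenous transcripts together, was at 0.0726, 0.0382 and 0.0461 CPM in the GFP-only replicates, at 205, 89.4 and 104 CPM with WT Ngn3 and at 198, 117 and 99.8 CPM with 6S-A Ngn3 at 2 days. At 8 days it was lower, at 6.89 to 46.4 CPM in the Ngn3 groups and at most 0.991 CPM in the no-color cells. All 12 genes of a duct list were detected in every group. Their summed level was 19590 to 21150 CPM with GFP only, 12530 to 13270 with WT Ngn3 and 10710 to 11150 with 6S-A Ngn3, and 7 of the 12 fell at 2 days with each form of Ngn3. Summed markers of acinar, mesenchymal, endothelial and immune cells stayed at or below 18.5 CPM in every replicate, and among them the 6 endothelial genes summed to 3.59 to 5.81 CPM with GFP only, 8.11 to 11.8 CPM with WT Ngn3 and 5.80 to 13.1 CPM with 6S-A Ngn3 at 2 days. A list of 10 neuron and glia genes was at 2.32 to 4.78 CPM with GFP only, 7.37 to 9.13 CPM with WT Ngn3 and 8.78 to 17.9 CPM with 6S-A Ngn3. At 8 days the neuron and glia list was at 0.796 to 31.9 CPM with WT Ngn3 and 0 to 25.7 CPM with 6S-A Ngn3, against 3.06 to 9.83 CPM in no-color WT and 1.48 to 5.44 CPM in no-color 6S-A cells. The part of these shifts in the channel values was not tested. In these pools, fewer cells of a type and less RNA per cell cannot be told apart.

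Endocrine cells of the pancreas are electrically excitable. In beta cells, closure of ATP-sensitive K+ channels depolarises the membrane, voltage-gated Ca2+ channels open, and the Ca2+ that enters triggers the release of insulin, after which delayed-rectifier and Ca2+-activated K+ channels repolarise the cell. A voltage-gated Ca2+ channel is built from an alpha1 subunit, which forms the pore, with alpha2delta and beta subunits that bring it to the membrane and tune its gating. Duct cells are secretory epithelium, in which K+ channels recycle K+ across the membrane and keep up the driving force for anion and fluid secretion.

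Members that rose with Ngn3 are shown here first by 4 of their promoters, with a member that fell (Kcnn4) for comparison, because Ngn3 is a basic helix-loop-helix factor and such factors bind E-boxes (CANNTG). The sequences are from RefSeq (GRCm38.p6) and run from 250 bases before the gene start to 50 bases after it, 5′ to 3′ along the strand of the gene. Capitals mark CAGATG or its reverse complement CATCTG, and CAGCTG, which reads the same on both strands. Cacna1b (chr2:24763103-24763402, minus strand) encodes an N-type Ca2+ channel pore, Cacna2d1 (chr5:15934441-15934740, plus strand) an alpha2delta subunit, Kcnk16 (chr14:20269220-20269519, minus strand) the TALK-1 channel, a tandem-pore K+ channel known from islets, Kcnmb1 (chr11:33962763-33963062, plus strand) a beta subunit of the large-conductance Ca2+-activated (BK) channel, and Kcnn4 (chr7:24370013-24370312, plus strand) the intermediate-conductance Ca2+-activated K+ channel of epithelia.
Cacna1b: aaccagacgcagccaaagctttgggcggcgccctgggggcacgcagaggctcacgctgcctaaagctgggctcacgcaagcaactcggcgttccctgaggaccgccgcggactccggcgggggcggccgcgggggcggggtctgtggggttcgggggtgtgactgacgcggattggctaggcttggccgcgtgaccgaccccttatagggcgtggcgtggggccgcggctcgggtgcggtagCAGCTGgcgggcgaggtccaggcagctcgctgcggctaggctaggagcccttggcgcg
Cacna2d1: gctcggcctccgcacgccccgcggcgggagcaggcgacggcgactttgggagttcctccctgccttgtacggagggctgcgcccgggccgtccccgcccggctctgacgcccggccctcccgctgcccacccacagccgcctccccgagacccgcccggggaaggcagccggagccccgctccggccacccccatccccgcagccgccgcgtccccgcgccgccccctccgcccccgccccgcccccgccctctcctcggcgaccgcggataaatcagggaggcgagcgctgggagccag
Kcnk16: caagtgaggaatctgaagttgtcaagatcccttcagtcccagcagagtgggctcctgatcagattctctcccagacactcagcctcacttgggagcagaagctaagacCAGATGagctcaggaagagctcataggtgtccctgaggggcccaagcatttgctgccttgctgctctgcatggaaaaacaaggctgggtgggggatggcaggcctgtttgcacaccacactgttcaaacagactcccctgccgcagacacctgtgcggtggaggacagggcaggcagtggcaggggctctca
Kcnmb1: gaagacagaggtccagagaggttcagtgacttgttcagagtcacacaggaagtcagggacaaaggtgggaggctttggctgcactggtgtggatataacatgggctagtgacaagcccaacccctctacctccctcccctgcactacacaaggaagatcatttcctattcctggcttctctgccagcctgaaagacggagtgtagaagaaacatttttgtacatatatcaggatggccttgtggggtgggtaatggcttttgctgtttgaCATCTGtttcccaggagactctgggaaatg
Kcnn4: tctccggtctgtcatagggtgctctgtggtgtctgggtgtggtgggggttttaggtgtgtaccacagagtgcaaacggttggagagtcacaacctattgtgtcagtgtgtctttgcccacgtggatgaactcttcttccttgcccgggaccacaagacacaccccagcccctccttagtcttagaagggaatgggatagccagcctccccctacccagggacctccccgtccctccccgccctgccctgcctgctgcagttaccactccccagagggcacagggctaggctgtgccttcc

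Cacna1b held CAGCTG 8 bases before the start, Kcnk16 held CAGATG 142 bases before it, Kcnmb1 held CATCTG 21 bases after it, and the windows of Cacna2d1 and Kcnn4 held none of these. E-boxes with other middle bases were not marked. The Kcnn4 window, for example, holds CACGTG, and that of Kcnk16 also holds CACCTG. The promoters of Cacna1b and Cacna2d1 were rich in G and C (72.3% and 80%), and those of Kcnk16, Kcnmb1 and Kcnn4 less so (57%, 49.7% and 59.7%). Of the 129 members, 95 had a promoter in the table. Searched on both strands, CAGATG was in 15 of the 95 (15.8%) against 17.2% of all 27025 promoters, CAGCTG in 25 (26.3%) against 16.1%, and CATATG in 3 (3.16%) against 3.91%. No motif contained another. Among the 19 members with a promoter that were higher with Ngn3 at 2 days, 3 (15.8%) held CAGATG, 5 (26.3%) CAGCTG and none CATATG, and among the 42 that were tested and not called the counts were 7 (16.7%), 10 (23.8%) and 1 (2.38%). For each motif the counts in members that rose and in members that were not called gave shares within 3 percentage points of each other. None of the 5 members that fell and had a promoter in the table held any of the 3 motifs. These matches describe the letters in a window and not a bound site.

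To ask which channel genes Ngn3 changed within 2 days, WT and 6S-A Ngn3 cells were each compared with the same GFP-only replicates, so the 2 comparisons share their controls. With both forms, 6 of 8 tested voltage-gated Ca2+ channel pores, the alpha2delta subunit Cacna2d1, the delayed rectifier Kcnb2, the Erg-type Kcnh6, the BK channel pore Kcnma1 and 2 tandem-pore K+ channels rose, and the Ca2+-activated, voltage-gated and auxiliary K+ channel genes with the highest levels per length in the controls (Kcnn4, Kcnq1 and Kcne3) fell. With WT Ngn3, 22 of the 93 tested members were higher (23.7%, against 6.56% of all 23844 genes tested) and 6 were lower (6.45%, against 5.23%), and the median log2 fold change of the members was 0.70 (all genes 0.01). With 6S-A Ngn3, 30 members were higher (32.3%, against 9.43% of all genes) and 6 lower (6.45%, against 8.62%), with a median of 0.83 (all genes 0.02). All 22 members higher with WT Ngn3 were also higher with 6S-A Ngn3, and the same 6 members were lower with both. Blocking on the replicate number, 32 members were called with WT Ngn3 (18% of all genes were), including all 28, and 38 with 6S-A Ngn3 (24.8% of all genes), including 35 of the 36. Cacna2d2 was the member lost, and Kcnmb4, which overlaps the antisense genes Kcnmb4os1 and Kcnmb4os2 (log2 fold change 2.43, adjusted p = 0.0465), and Kcnt1 (2.99, adjusted p = 0.0339) were among those added with 6S-A Ngn3. Replicates of the compared groups did not overlap for 21 of the 22 and 28 of the 30 higher members and for all 6 lower ones. Among all genes, 6.44% and 9.27% were called higher without overlap, and 5.19% and 8.55% lower. Of the 30 members higher with either form, 17 were below 1 CPM in every GFP-only replicate. Where the GFP-only replicates together held no more than 3 reads, the fitted fold is set largely by the prior count of the model. For such genes the fold is given as a ratio with its 95% counting interval where the controls held 1 to 3 reads, and as a lower bound against 3 reads per replicate where they held none.

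**Figure D1:**
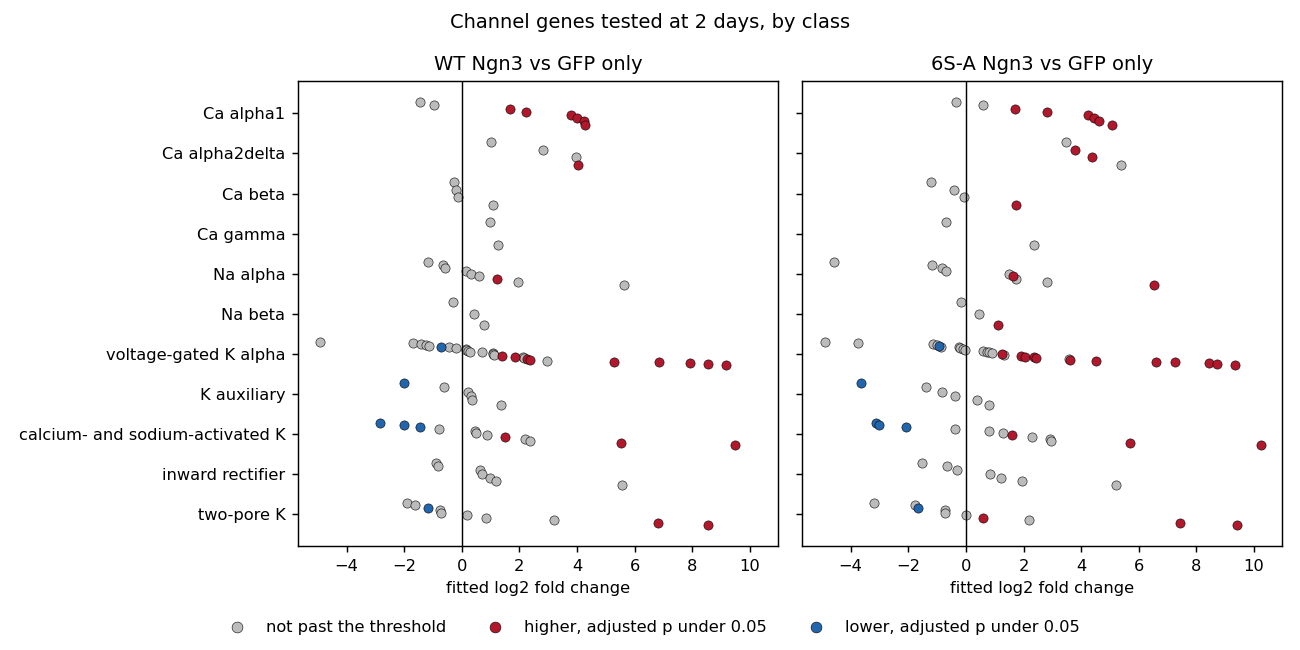
Fitted log2 fold change of the 93 tested channel genes at 2 days by family, WT Ngn3 against GFP only on the left and 6S-A Ngn3 against GFP only on the right. Each point is a gene, red where it was higher, blue where it was lower and grey where it did not pass an adjusted p of 0.05. The 6 red alpha1 genes of the Ca2+ channels stand out in both panels.

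Of the 10 genes for Ca2+ channel pores, 8 were tested and 6 rose with each form of Ngn3 (Cacna1a, Cacna1b, Cacna1c, Cacna1d, Cacna1g and Cacna1h). Cacna1h (ENSMUSG00000024112, chr17:25374285-25433783), which encodes a T-type channel that opens at low voltage, was at 1.16, 2.45 and 2.90 CPM with GFP only, at 36.1, 36.4 and 53.2 CPM with WT Ngn3 and at 73.6, 65.3 and 76.7 CPM with 6S-A Ngn3. The 3 groups did not overlap with one another. The log2 fold change was 4.29 (SE 0.28, adjusted p = 6.85e-07) with WT Ngn3 and 5.06 (SE 0.28, adjusted p = 1.08e-07) with 6S-A Ngn3. The other T-type gene called, Cacna1g, went from 0.181, 0.153 and 0.645 CPM to 7.62, 5.85 and 4.52 with WT Ngn3 and to 8.14, 9.10 and 6.38 with 6S-A Ngn3, without overlap with the controls (log2 fold change 4.23, SE 0.47, and 4.61, SE 0.47).

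The L-type pores, which carry much of the Ca2+ current of islet cells, were lower in level than Cacna1h. Cacna1c was at 0.254, 0.650 and 0.461 CPM with GFP only, 4.35, 3.55 and 14.1 CPM with WT Ngn3 and 10.2, 6.91 and 12.7 CPM with 6S-A Ngn3, a log2 fold change of 4.01 (SE 0.57) and 4.44 (SE 0.58). Cacna1d was at 0.472, 0.764 and 0.415 CPM with GFP only, 2.84, 0.679 and 4.27 CPM with WT Ngn3 and 3.38, 3.27 and 4.96 CPM with 6S-A Ngn3. WT replicate 2 of Cacna1d lay within the range of the controls (log2 fold change 2.23, SE 0.56, adjusted p = 0.0187), and the 6S-A replicates did not overlap with them (2.80, SE 0.57). The N-type gene Cacna1b rose from 0.689, 0.382 and 0.138 CPM to 4.27, 3.40 and 9.48 CPM and to 6.45, 5.98 and 11.4 CPM (log2 fold change 3.78, SE 0.54, and 4.24, SE 0.55). Cacna1a, the P/Q-type pore of presynaptic terminals, was the only 1 of the 6 with several CPM in the controls. It was at 9.14, 5.31 and 7.46 CPM with GFP only, 25.1, 19.4 and 25.0 CPM with WT Ngn3 and 20.9, 19.4 and 30.8 CPM with 6S-A Ngn3, and rose by the smallest amount of the 6 (log2 fold change 1.67, SE 0.24, and 1.69, SE 0.24). Cacna1a, Cacna1d and Cacna1h overlap exons of genes on the other strand (Gm16183, Chdh and Tpsg1), and the sources used here do not say whether counting used strand, so reads of these pairs cannot be told apart.

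Set per length of transcript, the 10 pore genes together were at 1.03 ± 0.146 CPM per kb with GFP only, 8.05 ± 1.79 CPM per kb with WT Ngn3 and 11.8 ± 1.44 CPM per kb with 6S-A Ngn3 (SD, n = 3). Cacna1a made up 62.1% of this sum in GFP-only cells, while Cacna1h made up 53.3% and 62.3% of it with WT and 6S-A Ngn3. At 2 days the leading Ca2+ channel pore by level per length was thus a different gene with Ngn3 than with GFP only. In the cells without Ngn3 of 8 days Cacna1h also led, with 41.5% in no-color WT and 62.1% in no-color 6S-A cells.

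Cacna2d1 (ENSMUSG00000040118), an alpha2delta subunit that carries pores to the membrane, reached the highest level of the members that rose from below 10 CPM. It was at 6.71, 9.52 and 9.63 CPM with GFP only, 91.8, 82.0 and 243.9 CPM with WT Ngn3 and 172, 139 and 223.2 CPM with 6S-A Ngn3, without overlap with the controls. The log2 fold change was 4.02 (SE 0.47, adjusted p = 0.000765) and 4.37 (SE 0.48, adjusted p = 0.000322). Cacna2d1 held at least 98.8% of the level per length of the 4 alpha2delta genes in every group. Cacna2d2 was also called with 6S-A Ngn3, from 3 reads in all GFP-only replicates (ratio 16.2, 5.17 to 81.7), and its groups overlapped. Of the 4 beta subunits, which bind the pore inside the cell, Cacnb3 held 96% of the level per length in GFP-only cells and did not pass the test (61.8, 58.6 and 56.2 CPM with GFP only, 57.9, 53.2 and 49.9 CPM with WT Ngn3, 52.3, 57.7 and 59.4 CPM with 6S-A Ngn3). Cacnb2 was called with 6S-A Ngn3 only (1.31, 1.19 and 1.75 CPM against 5.95, 2.81 and 5.45 CPM, log2 fold change 1.74, SE 0.44, adjusted p = 0.0132), and with WT Ngn3 it was at 3.44, 1.36 and 4.18 CPM (1.09, SE 0.44, adjusted p = 0.149). Cacna2d2 overlaps exons of Gm17141, and Cacnb2 those of Gm10848, Gm10849 and Gm13269, on the other strand. Neither of the 2 gamma subunits tested passed.

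**Figure D2:**
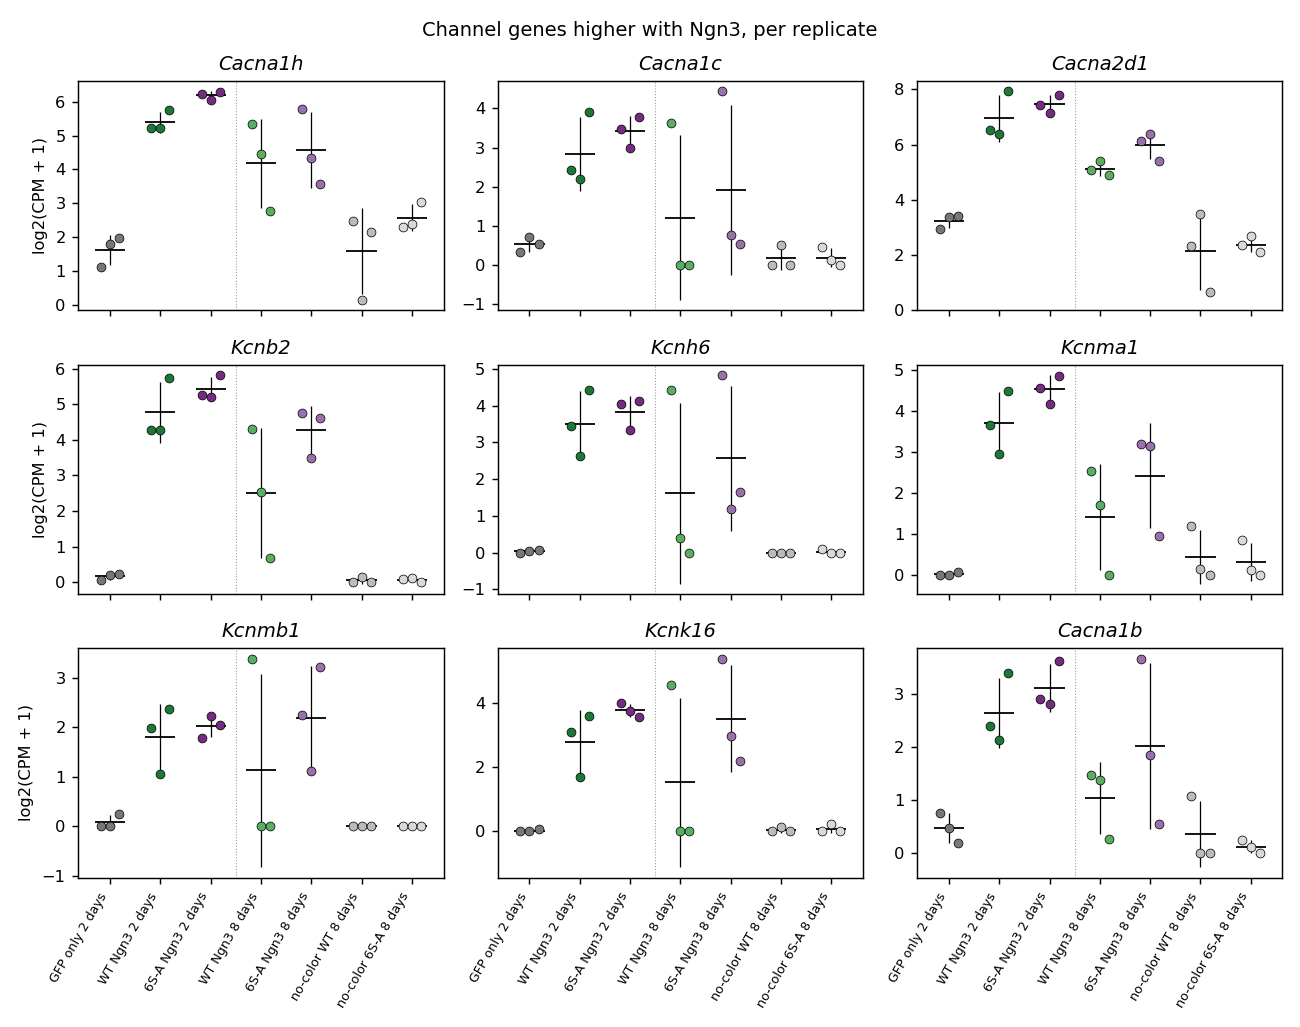
Level of 9 members that rose, as log2(CPM + 1), in the 7 groups of 2 and 8 days. Points are replicates 1 to 3 from left to right, the line is the group mean and the bar its SD on the log scale. Kcnma1, Kcnb2, Kcnh6 and Kcnk16 lie below 2 CPM in every GFP-only and no-color replicate.

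Among the 28 voltage-gated K+ channel pores tested, 9 rose with the wild-type form and 12 with 6S-A Ngn3, and 1 fell with both. Kcnb2 (ENSMUSG00000092083, chr1:15287254-15723750) encodes a delayed rectifier of the Kv2 family. It had 9 reads in all GFP-only replicates (0.0363, 0.153 and 0.184 CPM) and rose to 18.4, 18.5 and 52.8 CPM with WT Ngn3 and to 37.6, 35.9 and 55.5 CPM with 6S-A Ngn3. The log2 fold change was 7.90 (SE 0.65, adjusted p = 2.81e-05) and 8.42 (SE 0.66, adjusted p = 9.79e-06). Kcnh6, an Erg-type channel, had 2 reads in the GFP-only replicates and was at 9.80, 5.17 and 20.5 CPM with WT Ngn3 and at 15.4, 9.10 and 16.4 CPM with 6S-A Ngn3, ratios of 445 (123 to 3680) and 522 (144 to 4320).

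Other pores of this family rose less or at lower levels. Kcnc1, a fast delayed rectifier of the Shaw family, had no read in GFP-only cells and was at 1.42, 0.731 and 7.37 CPM with WT Ngn3 and at 2.84, 2.03 and 5.94 CPM with 6S-A Ngn3 (lower bounds of 26.3-fold with WT and 29.9-fold with 6S-A). Its relative Kcnc4 and the Shaker-type Kcna3 also had no read in GFP-only cells, and the bounds were 5.25-fold and 6.99-fold for Kcnc4 and 1.75-fold and 4.37-fold for Kcna3. The log2 fold changes with WT and 6S-A Ngn3 were 2.27 and 2.42 for the Elk-type Kcnh8 and 1.39 and 1.90 for the Erg-type Kcnh7, whose exons overlap those of Gca. Kcnh2 and Kcna2 were among those called with 6S-A and not with WT Ngn3. Kcnh2, the Erg channel of the heart, was at 1.197, 1.30 and 2.07 CPM with GFP only, 2.33, 3.34 and 4.18 CPM with WT Ngn3 (log2 fold change 1.11, adjusted p = 0.0702, with the replicate block 1.12, adjusted p = 0.0137, and by DESeq2 1.12, adjusted p = 0.0250) and 7.41, 5.41 and 10.7 CPM with 6S-A Ngn3 (2.36, SE 0.37, adjusted p = 0.000449). The 3 groups did not overlap. Kcna2 stayed below 1 CPM in every replicate.

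Kcnq1 was the pore of this family that fell. It pairs with Kcne3 in secretory epithelia, where the channel carries K+ across the basolateral membrane. Kcnq1 was at 28.1, 40.8 and 36.1 CPM with GFP only, 20.7, 22.1 and 20.7 CPM with WT Ngn3 and 23.6, 14.9 and 16.2 CPM with 6S-A Ngn3, without overlap with the controls (log2 fold change -0.72, SE 0.19, adjusted p = 0.0251, and -0.95, SE 0.19, adjusted p = 0.00329). The antisense gene Kcnq1ot1 overlaps it. Per length of transcript, Kcnq1 made up 63.1% of the 40 pore genes in GFP-only cells.

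Of the 6 auxiliary K+ channel subunits tested, Kcne3 alone was called, and it fell. It was at 67.5, 146.9 and 96.5 CPM with GFP only, 11.6, 30.2 and 35.1 CPM with WT Ngn3 and 4.12, 12.7 and 8.28 CPM with 6S-A Ngn3. The controls lay above every Ngn3 replicate (log2 fold change -2.02, SE 0.52, adjusted p = 0.0415, and -3.65, SE 0.56, adjusted p = 0.00256).

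The 12 genes of Ca2+- and Na+-activated K+ channels were all tested, and 3 rose and 3 fell with each form of Ngn3. Kcnma1 (ENSMUSG00000063142, chr14:23289431-24014491), the pore of the BK channel, had 1 read in the GFP-only replicates, in replicate 3. It was at 11.7, 6.69 and 21.3 CPM with WT Ngn3 and 22.5, 17.1 and 28.1 CPM with 6S-A Ngn3, ratios of 1000 (179 to 39500, adjusted p = 2.87e-06) and 1720 (309 to 68200, adjusted p = 7.57e-07). Its beta subunit Kcnmb1 was at 0, 0 and 0.184 CPM with GFP only, 2.96, 1.10 and 4.18 CPM with WT Ngn3 and 2.47, 3.69 and 3.15 CPM with 6S-A Ngn3 (log2 fold change 5.52, SE 0.86, and 5.68, SE 0.86). Pore and beta subunit of the BK channel thus both rose without overlap. Kcnn2, a small-conductance channel gated by Ca2+ through calmodulin, rose with log2 fold changes of 1.49 and 1.61, and its exons overlap A330093E20Rik.

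The same family held 3 of the 6 members that fell. Kcnn4 (ENSMUSG00000054342, chr7:24370263-24386690), whose promoter is given above, was at 157.5, 144.3 and 144.1 CPM with GFP only, 31.7, 39.9 and 39.2 CPM with WT Ngn3 and 10.9, 18.5 and 22.4 CPM with 6S-A Ngn3. The 3 groups did not overlap (log2 fold change against GFP only -2.01, SE 0.20, adjusted p = 2.44e-05, and -3.11, SE 0.21, adjusted p = 5.33e-07). Kcnn3 was at 50.6, 31.1 and 46.1 CPM with GFP only, 12.3, 18.7 and 16.0 CPM with WT Ngn3 and 7.96, 12.3 and 10.01 CPM with 6S-A Ngn3 (-1.45, SE 0.22, and -2.09, SE 0.23). Kcnt2, a Na+-activated channel, was at 4.35, 4.55 and 4.10 CPM with GFP only, 0.435, 0.627 and 0.737 CPM with WT Ngn3 and 0.0915, 1.04 and 0.487 CPM with 6S-A Ngn3 (-2.85, SE 0.57, and -3.02, SE 0.58), and its exons overlap 4930590L20Rik on the other strand. Of the 3 genes of the Kcnn group called, Kcnn3 and Kcnn4 thus fell and Kcnn2 rose. Per length, the 12 genes summed to 34.6 ± 2.33, 11.7 ± 1.60 and 8.53 ± 1.76 CPM per kb with GFP only, WT Ngn3 and 6S-A Ngn3 (SD, n = 3), of which Kcnn4 made up 84%, 61.6% and 39.6%.

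**Figure D3:**
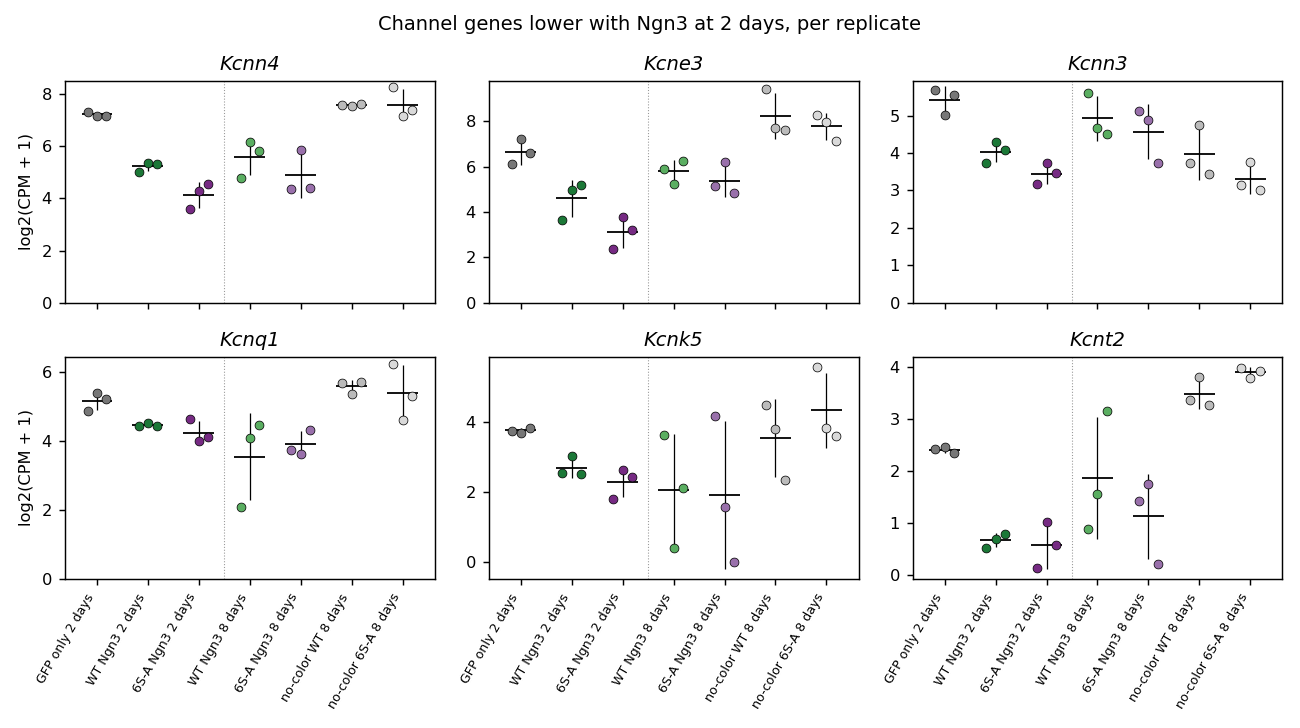
Level of the 6 members that fell at 2 days, as log2(CPM + 1), in the 7 groups. Points are replicates 1 to 3 from left to right, the line is the group mean and the bar its SD on the log scale. For Kcnn4 and Kcne3 the no-color cells of 8 days lie above the Ngn3 cells of 8 days, and for Kcnn3 the ranges of the 2 kinds of cells overlap.

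Of 10 tandem-pore K+ channels tested, which set the resting potential, Kcnk16 and Kcnk3 rose with both forms and Kcnk5 fell. Kcnk16 had 1 read in the GFP-only replicates and was at 7.58, 2.25 and 11.0 CPM with WT Ngn3 and 14.8, 12.4 and 10.9 CPM with 6S-A Ngn3, ratios of 534 (95.4 to 21100) and 957 (171 to 37900). Kcnk3, the acid-sensitive TASK-1 channel, also had 1 read in the controls and was at 1.19, 2.25 and 2.85 CPM with WT Ngn3 and 1.14, 5.09 and 3.50 CPM with 6S-A Ngn3 (ratios of 152, 26.9 to 6070, and 239, 42.5 to 9500), with exons that overlap Gm9899. Kcnk5, the alkali-activated TASK-2 channel of epithelia, fell by 1.17 and 1.66 on the log2 scale. Kcnk1, which made up 94.1% of the family per length in GFP-only cells, was at 140, 149 and 137 CPM with GFP only, 165, 150 and 168 CPM with WT Ngn3 (log2 fold change 0.19, adjusted p = 0.309) and 219, 202 and 217 CPM with 6S-A Ngn3 (0.58, SE 0.10, adjusted p = 0.00112). None of the 7 inward rectifiers tested passed, and the 14 genes of that family together stayed at or below 1.06 CPM per kb on average in every group.

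Of the Na+ channels, 9 pores were tested. Scn8a led the pores per length in GFP-only cells and did not pass the test, while with the replicate block it was lower with both forms (log2 fold change -0.62, adjusted p = 0.0427, and -0.67, adjusted p = 0.0227). Scn7a was called with 6S-A Ngn3 from no read in the controls (at least 4.11-fold higher), and its groups overlapped because 6S-A replicate 1 had none either. With the replicate block Scn7a was also called with WT Ngn3 (adjusted p = 0.0457).

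Some of these calls needed all replicates to pass. With WT Ngn3, calls that included those of Cacna1d, Kcna3, Kcne3, Kcnh7, Kcnk5, Kcnn2 and Kcnq1, and with 6S-A Ngn3 calls that included those of Cacna2d2, Cacnb2, Kcna2 and Scn7a, were lost in at least 1 of the fits that left out a replicate. The call of Kcne3 with WT Ngn3 was lost in 7 of these 9 fits, while its log2 fold change stayed between -2.32 and -1.67 in all alternatives.

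WT and 6S-A Ngn3 cells were then compared directly, to ask whether removal of the phosphorylation sites changed the channel genes. At 2 days no member of the 93 passed an adjusted p of 0.05 by edgeR's quasi-likelihood test (0.0126% of all genes did), 8 had an unadjusted p under 0.05 (5.79% of all genes), and DESeq2 called 2 (0.407% of all genes). Over all 93 members, 62 were higher with 6S-A than with WT Ngn3, with a median log2 difference of 0.34 (all genes -0.00). The members with the clearest differences were those whose groups did not overlap. The log2 difference of Kcnn4, 6S-A minus WT Ngn3, was -1.11 (95% interval -1.60 to -0.61, adjusted p = 0.182). Cacna1h was higher by 0.77 (0.21 to 1.33, adjusted p = 0.515), Kcnh2 by 1.25 (0.38 to 2.12, adjusted p = 0.493) and Kcnk1 by 0.39 (0.14 to 0.64, adjusted p = 0.446). The interval of Cacna1a, -0.54 to 0.59 around 0.02, was among the narrowest. Those of Kcnma1 (-0.11 to 1.63), Kcnb2 (-0.44 to 1.47) and Cacna2d1 (-0.65 to 1.34) included 0 and also differences of more than 2-fold.

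Samples with the same replicate number deviated together, and in a fit that blocks on the replicate number 3 members differed between 6S-A and WT Ngn3 at 2 days (0.617% of all genes did). These were Kcnn4 (log2 difference -1.13, adjusted p = 0.0268), Kcne3 (-1.63, adjusted p = 0.00652) and Kcnk1 (0.39, adjusted p = 0.0418). DESeq2 called Kcnn4 (-1.10, adjusted p = 0.00112) and Kcnk1 (0.39, adjusted p = 0.0212). The difference of Kcnn4 between the forms of Ngn3 thus passed in these fits and not by edgeR without the block.

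At 8 days the Ngn3 cells were compared with the no-color cells of both kinds of organoids. Here fewer genes passed the test in the table as a whole, and the members that passed were mostly those seen at 2 days. With WT Ngn3, 4 of 66 tested members were higher (0.741% of all 19696 genes were) and 2 lower (0.173%), and 21 had an unadjusted p under 0.05 (10.5% of all genes). With 6S-A Ngn3, 7 were higher (1.37% of all genes) and 2 lower (0.34%), and 32 had an unadjusted p under 0.05 (12.1% of all genes). The median log2 fold change of the members was 1.15 and 1.64 (all genes 0.01 and 0.03). Of the 7 members higher with either form, 4 were higher with both, and 6 were also higher at 2 days. Blocking on the replicate number brought the count for 6S-A Ngn3 to 14 (3.57% of all genes), with Cacna1a, Cacna1b, Cacna1h and Kcnma1 added to the higher and Kcnt2 to the lower members, and that for WT Ngn3 to 7 (2.4% of all genes), with Kcnh6 added.

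**Figure D4:**
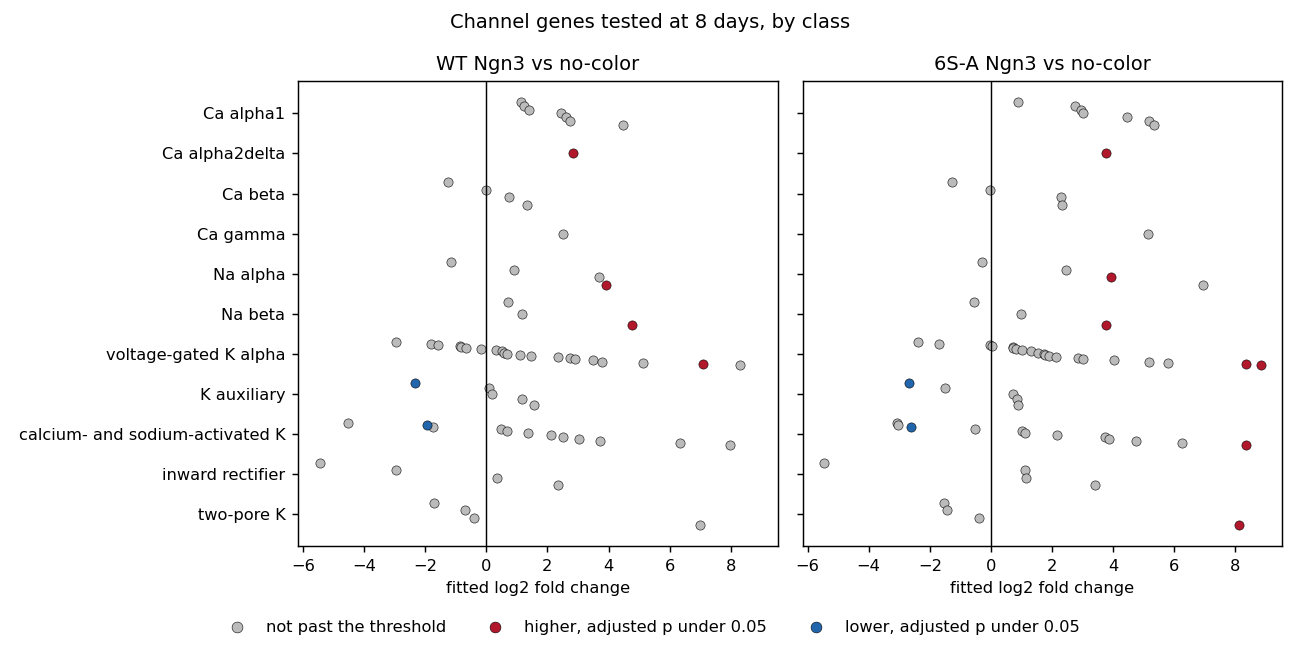
Fitted log2 fold change of the 66 tested channel genes at 8 days by family, WT Ngn3 against no-color on the left and 6S-A Ngn3 against no-color on the right. Each point is a gene, red where it was higher, blue where it was lower and grey where it did not pass an adjusted p of 0.05. All 7 Ca2+ channel pore genes lie above 0 in both panels and none passed.

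Cacna2d1 and Kcnb2 rose with both forms. Cacna2d1 was at 32.8, 41.9 and 28.5 CPM with WT Ngn3 and 69.7, 82.7 and 41.8 CPM with 6S-A Ngn3, against 3.99, 10.1 and 0.578 CPM in no-color WT and 4.10, 5.41 and 3.33 CPM in no-color 6S-A cells. No Ngn3 replicate overlapped with the controls (log2 fold change 2.85, SE 0.47, adjusted p = 0.00558, and 3.76, SE 0.48, adjusted p = 0.000463). Against the own no-color group alone, the call of Cacna2d1 with WT Ngn3 was lost (quasi-likelihood test, adjusted p = 0.081). Kcnb2 was at 18.8, 4.83 and 0.597 CPM with WT Ngn3 and 25.8, 10.3 and 23.3 CPM with 6S-A Ngn3, against 3 reads in the 6 no-color replicates. The ratio was 240 (81 to 1170, adjusted p = 0.00186) and 434 (148 to 2110, adjusted p = 0.000384). WT replicate 3 of Kcnb2 stood closest to the controls, with a level that corresponds to 3 reads.

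Among the Na+ channel genes, Scn3b was called with both forms. Scn3b, a beta subunit, was at 6.42, 17.7 and 5.97 CPM with WT Ngn3 and 6.59, 7.17 and 0.927 CPM with 6S-A Ngn3, against 0, 0.219 and 0 CPM in no-color WT and 1.53, 1.08 and 1.48 CPM in no-color 6S-A cells (log2 fold change 4.77, adjusted p = 0.0164, and 3.76, adjusted p = 0.0407). The 6S-A replicates of Scn3b overlapped with the controls. Against their own no-color group alone, Scn3b had a log2 fold change of 1.84 with 6S-A Ngn3 (adjusted p = 0.637, and 1.49 with the block, adjusted p = 0.621) and of 6.69 with WT Ngn3 (adjusted p = 0.0514, and 6.94 with the block, adjusted p = 0.0114). The call with 6S-A Ngn3 was lost in 12 of 22 alternatives and that with WT Ngn3 in 5. At 2 days Scn3b had not passed the test, at 9.47, 6.88 and 3.59 CPM with GFP only and 2.31 to 8.93 CPM in the Ngn3 replicates, so that its level was lower in the controls of 8 days than in those of 2 days and the Ngn3 levels were similar on both days.

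Kcnk16, Kcnmb1 and Kcnh6 were called with 6S-A and not with WT Ngn3, and in each the level of the WT group came mostly from replicate 1. With the replicate block Kcnh6 also passed with WT Ngn3 (log2 fold change 8.17, adjusted p = 0.00299). Kcnk16 was at 40.4, 6.82 and 3.55 CPM with 6S-A Ngn3 and 22.7, 0 and 0 CPM with WT Ngn3 (ratio with 6S-A 489, 167 to 2380, adjusted p = 0.0224, and with WT 266, 89.9 to 1300, adjusted p = 0.0695). Kcnh6 was at 27.5, 1.29 and 2.16 CPM with 6S-A Ngn3 and 20.7, 0.322 and 0 CPM with WT Ngn3 (ratio with 6S-A 938, 168 to 37100, adjusted p = 0.0308). Kcnmb1 was at 3.75, 1.18 and 8.34 CPM with 6S-A Ngn3 and 9.49, 0 and 0 CPM with WT Ngn3, with no read in the no-color cells (at least 8.6-fold higher with 6S-A, adjusted p = 0.0426). The call of Kcnmb1 remained in 8 of 22 alternatives and was lost by DESeq2, against the own no-color group and without any single 6S-A or no-color replicate (adjusted p up to 0.252). Those of Kcnk16 and Kcnh6 remained in 15 of 22 and 12 of 21. None of these 3 passed between 6S-A and WT Ngn3, and the intervals of the difference were wide (Kcnk16 -2.35 to 4.57, Kcnh6 -3.05 to 4.09 on the log2 scale). WT replicates 2 and 3 each rested on 1 pool of 50 cells. They held 3034680 and 4966242 reads, so that 3 reads corresponded to 0.966 and 0.597 CPM. Values of 0 there mean not detectable in that pool at this depth.

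At 8 days no Ca2+ channel pore passed edgeR's quasi-likelihood test without the block. All 7 tested had a positive log2 fold change with both forms (50.5% and 51.9% of all genes did), with medians of 2.43 and 3.00, and 3 and 6 of them had an unadjusted p under 0.05 (10.5% and 12.1% of all genes). DESeq2 called 8 members with WT and 13 with 6S-A Ngn3 at 8 days (2.77% and 4.17% of all genes). Of the Ca2+ channel pores these held Cacna1h with WT Ngn3 (log2 fold change 2.58, adjusted p = 0.0354) and Cacna1a, Cacna1b and Cacna1h with 6S-A Ngn3 (3.02, 4.56 and 2.89, adjusted p = 0.0171, 0.0185 and 0.00826). Cacna1a and Cacna1b were also called with 6S-A Ngn3 in the fit with the replicate block (3.65 and 4.65, adjusted p = 0.0194 and 0.0198). Cacna1h was at 39.5, 20.9 and 5.77 CPM with WT Ngn3 and 54.1, 19.0 and 11.0 CPM with 6S-A Ngn3, against 0.109 to 7.16 CPM in the no-color replicates (6S-A log2 fold change 2.95, SE 0.73, adjusted p = 0.0517, and with the replicate block 2.82, adjusted p = 0.0230). The 6S-A replicates did not overlap with the controls and WT replicate 3 did.

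The lower members of 8 days were Kcnn4 and Kcne3, which had also fallen at 2 days. Kcnn4 was at 26.8, 70.8 and 55.7 CPM with WT Ngn3 and 19.7, 57.8 and 20.1 CPM with 6S-A Ngn3, against 192.4, 186.4 and 195.4 CPM in no-color WT and 308.4, 142 and 166.3 CPM in no-color 6S-A cells, without overlap (log2 fold change -1.96, adjusted p = 0.0418, and -2.61, adjusted p = 0.00482). Kcne3 was at 57.7, 36.7 and 74.6 CPM with WT Ngn3 and 34.0, 71.8 and 27.6 CPM with 6S-A Ngn3, against 136.9 to 684.4 CPM in the no-color replicates, also without overlap (-2.33, adjusted p = 0.0284, and -2.69, adjusted p = 0.00731). Summed duct markers were at 15840 to 18710 CPM with WT Ngn3 and 11150 to 27120 with 6S-A Ngn3, against 17630 to 43180 and 34380 to 39250 in the no-color cells, and 1 and 2 of the 12 duct genes were lower with WT and 6S-A Ngn3. Of the 8-day calls, those of Cacna2d1 and Kcnb2 with both forms and of Kcne3 and Kcnn4 with 6S-A Ngn3 remained when any single replicate was left out.

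Between 6S-A and WT Ngn3 at 8 days no member passed by edgeR's quasi-likelihood test (0% of all genes did), 3 had an unadjusted p under 0.05 (Cacnb1, Kcnj14 and Kcnmb3; 2.11% of all genes), and DESeq2 called 0. Between no-color 6S-A and no-color WT cells no member passed either (0% of all genes), and 4 had an unadjusted p under 0.05 (Kcnc2, Kcnf1, Scn3b and Scn4b; 8.37% of all genes).

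Both days were fitted together over 19589 genes, 64 of them members, to ask how the channel genes changed with time. In Ngn3 cells, WT and 6S-A together, 2 members were higher at 8 than at 2 days (1.91% of all genes were) and 4 were lower (2.32%). Kcne3 and Kcnn3 rose by 1.78 and 1.15 on the log2 scale, and the lower ones included Cacna2d1 and Kcnk1, which changed by -1.74 and -0.88. In the control cells no member was higher (0.403% of all genes) and 3 were lower (0.95% of all genes), among them Kcnn3 and Scn3b with log2 changes of -1.81 and -4.25. With the replicate block 19 members changed in the Ngn3 cells (12.5% of all genes did), 3 higher and 16 lower, the lower including Cacna1b, Cacna1c, Cacna1g, Cacna1h, Kcnma1, Kcnb2 and Kcnh6, and 7 changed in the control cells (8.14% of all genes). Kcne3 and Cacna2d1 changed in the control cells in the same direction as in the Ngn3 cells, by 1.48 and -0.82 (adjusted p = 0.134 and 0.345), and with the block by 1.44 and -0.95 (adjusted p = 0.0262 and 0.0498). Cacna1a was also called in the control cells with the block (-2.33, adjusted p = 0.0232).

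Kcnn3 was the member whose change with Ngn3 differed between the days. It was lower than GFP only at 2 days, while at 8 days it was at 47.6, 24.5 and 21.7 CPM with WT Ngn3 and 33.6, 28.6 and 12.2 CPM with 6S-A Ngn3 against 12.3, 25.8 and 9.83 CPM in no-color WT and 7.89, 12.4 and 7.04 CPM in no-color 6S-A cells. The groups of 8 days overlapped (log2 fold change 1.38, adjusted p = 0.217, and 1.03, adjusted p = 0.358). The log2 fold change with Ngn3 was higher at 8 than at 2 days by 2.96 (SE 0.46, adjusted p = 0.0122, 0.0715% of all genes passed). Without GFP-only replicate 1 or 3 this call was lost (2.81, adjusted p = 0.112, and 2.90, adjusted p = 0.0629). The controls of 2 days were GFP+ and those of 8 days no-color, and Kcnn3 itself was lower in the latter. With the replicate block 3 members passed (0.444% of all genes), Kcnn3, Scn3b (4.49, adjusted p = 0.0170) and Kcnma1 (-6.10, adjusted p = 0.0160). No member had a difference between 6S-A and WT Ngn3 that changed with time (0% of all genes), and 4 members had an unadjusted p under 0.05 for this (2.27% of all genes).

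The single pools of 50 cells showed how evenly the channel genes were present. They are technical repeats of 3 replicates and are described without a test. At 2 days a GFP-only pool held a median of 22 members at 2 CPM or more (range 19 to 26 over 18 pools), a WT Ngn3 pool 34.5 (27 to 39) and a 6S-A Ngn3 pool 35 (30 to 44). At this level each Ngn3 pool of 2 days held more channel genes than any GFP-only pool. At 1 CPM the ranges overlapped (25 to 40 with GFP only, 33 to 48 with WT and 37 to 50 with 6S-A Ngn3), and at 5 CPM those of GFP only (10 to 19) and WT Ngn3 (18 to 26) did, while 6S-A Ngn3 pools held 21 to 34. At 8 days the medians were 29.5 (21 to 36, 4 pools) with WT Ngn3, 35 (26 to 42, 6 pools) with 6S-A Ngn3, and 15.5 (12 to 20) and 16.5 (14 to 23) in the 6 pools each of no-color WT and no-color 6S-A cells.

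**Figure D5:**
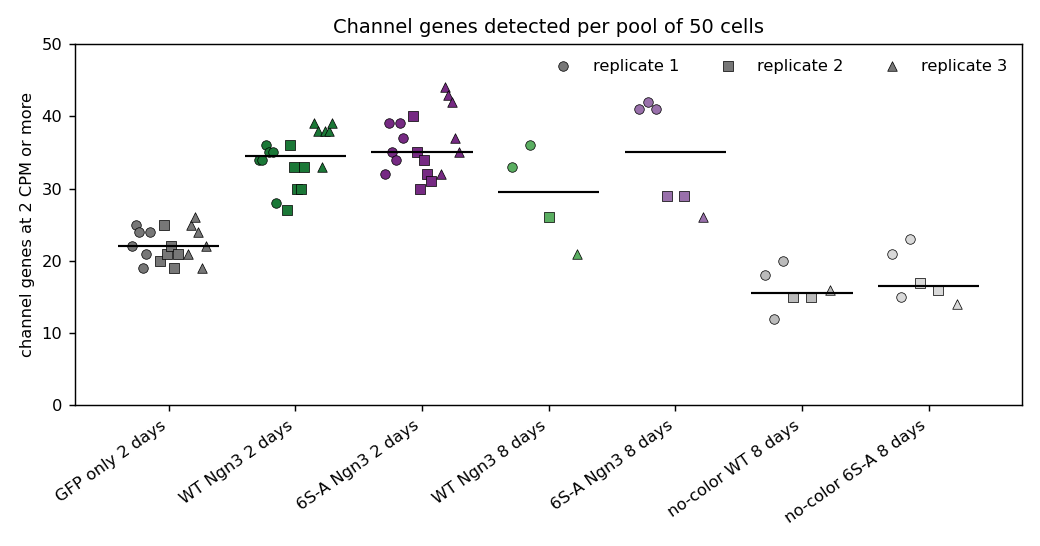
Number of channel genes at 2 CPM or more in each pool of 50 cells, by group. Circles, squares and triangles are pools of replicates 1, 2 and 3 and the line is the group median. The GFP-only pools lie between 19 and 26 and the Ngn3 pools of 2 days between 27 and 44.

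Of the 17 members below 1 CPM in every GFP-only replicate, 5 were picked and followed in the single pools. Each of these 5 was at 2 CPM or more in most Ngn3 pools of 2 days. They do not stand for all 17, since Kcna2 stayed below 1 CPM in every summed replicate of 2 days. Kcnb2 was at 2 CPM or more in 0 of 18 GFP-only pools and in all 18 pools with WT and all 18 with 6S-A Ngn3, with medians of 24.4 and 47.8 CPM. Kcnma1 reached this level in 0, 17 and 18 pools, Kcnh6 in 0, 15 and 17, Kcnk16 in 0, 13 and 17, and Kcnmb1 in 0, 13 and 13. At 8 days the pools differed more from each other. Kcnk16 was at 2 CPM or more in 2 of 4 WT Ngn3 pools and in 6 of 6 with 6S-A Ngn3, Kcnh6 in 2 and 5, Kcnmb1 in 1 and 4, and Kcnb2 in 3 and 6, and none of these 4 reached it in any of the 12 no-color pools. The summed level of a list of endocrine genes in the WT Ngn3 pools of 8 days was 7765.8 and 3032.1 CPM in the 2 pools of replicate 1, 1092.7 CPM in replicate 2 and 37.9 CPM in replicate 3, and replicate 1 was also the replicate with the most Kcnk16, Kcnh6 and Kcnb2. Its part in the channel values was not tested.

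Genes that work with the channels were followed on a list of 48, of which 46 were tested at 2 days. With WT Ngn3 11 were higher and 2 lower (6.56% and 5.23% of all genes were), and with 6S-A Ngn3 16 were higher and 4 lower (9.43% and 8.62% of all genes). The median log2 fold change of the list was 0.46 and 0.48. The counts of lower genes are close to these shares of all genes, and the lower genes are given as values. Abcc8, the sulfonylurea receptor of the ATP-sensitive K+ channel, went from 0.327, 0.115 and 0.230 CPM with GFP only to 6.48, 7.63 and 6.93 CPM with WT Ngn3 and 11.9, 11.5 and 19.5 CPM with 6S-A Ngn3 (log2 fold change 4.93 and 5.96). Its pore Kcnj11 had no read with GFP only and stayed below 1 CPM with Ngn3 at 2 days (0.435, 0.575 and 0.197 CPM with WT, 0.229, 0.156 and 0.354 CPM with 6S-A). Kcnip3, a Ca2+-binding partner of voltage-gated K+ channels, had no read with GFP only and was at 14.7, 4.39 and 20.1 CPM with WT Ngn3 and 14.7, 13.3 and 35.2 CPM with 6S-A Ngn3. Lrrc38, an auxiliary subunit of the BK channel, rose by 4.50 and 4.55 on the log2 scale, as its pore Kcnma1 did, and so did the Ca2+ release channel Ryr3 (4.17 and 4.18), the cation channel Trpm2 (3.54 and 4.48) and Unc79 and Unc80, which belong to the Na+ leak channel complex (2.41 and 2.36, 2.72 and 2.95). Lower with both were Atp1b1, a subunit of the Na+/K+ pump (-1.06 and -0.60), and the cation channel Trpm4 (-0.72 and -0.64). Among genes called with 6S-A Ngn3 only, Gem and Rrad, small G proteins that restrain Ca2+ channels, were at log2 fold changes of 1.70 and 1.01, and the Ca2+-activated Cl- channel Ano1 of secretory epithelia was at -0.83.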

How the data were processed

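Libraries were made with Smart-seq2, which amplifies full-length cDNA, from pools of 50 sorted cells. The authors deposited read counts per gene, made per the labels with GSNAP on mm10 and HTSeq 0.5.3p3, with Ensembl release 81 annotation in the methods, and without normalization. Whether counting used strand is not given in the sources used here. Of all reads, 22.5% were not aligned, 14.4% fell in no feature and 8.06% were ambiguous, and these were kept out of library sizes and tests. Gene symbols matched 45143 of the 46078 identifiers, gene coordinates are those of GENCODE M21 (GRCm38), and promoters came from the RefSeq table.

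Libraries were kept that had spike-ins below 30% of reads, more than 1000000 gene reads and more than 10000 detected genes. This left out 1 of 77, from replicate 2 of the WT Ngn3 cells of 8 days. Repeats were summed per biological replicate, and genes detected in at least 5 libraries of the day were tested with edgeR 4.0.16 (R 4.3.3, limma 3.58.1) by TMM normalization and the robust quasi-likelihood test. Adjusted p-values are Benjamini-Hochberg values over all genes tested, with a threshold of 0.05. All groups of a day shared 1 estimate of the spread. The SE was taken as the size of the log2 fold change divided by the square root of the F statistic, and the 95% intervals of differences used this SE with 6 residual degrees of freedom at 2 days and 8 at 8 days. A ratio from few control reads has an exact 95% interval for the counts. The labels call the replicates biological without saying that they came from separate cultures, so p-values measure the spread between these samples, which may be technical. The scripts were checked on simulated counts with known changes.

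Deviations from the group means were correlated between replicates of the same number in different groups (0.147 to 0.54, median 0.409, over 9 pairs at 2 days, and 0.128 to 0.653, median 0.345, over 18 pairs at 8 days), with medians of -0.129 and -0.249 for unequal numbers. The numbers were therefore taken to pair the samples, and the fit that includes them was run beside each comparison. In the fit of both days the block was set within each day, so that samples of 2 days were not paired with samples of 8 days.

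Members and gene lists were chosen with earlier results of these data known. Genes named are Neurog3, up to 30 members per comparison with the largest change past the threshold and without overlap, all members that fell, the leading member of each family per length, and partner genes that passed. Members outside this rule are given with their values as examples that overlapped or did not pass. Alternatives were size factors of DESeq2 1.42.0 and scran 1.30.0, DESeq2's own test, edgeR's filter and no filter on low counts, no limits on libraries, 1 technical repeat per replicate (the lowest-numbered), the pairing, each form's own no-color group, and leaving out each replicate. Some members are counted and not reported here by name.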

Additional observations from a re-analysis of the deposited data

Results flagged for a closer look

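Members named above were checked for a sample that lay far from the others of its group, judged by Dixon's criterion on the gap to its nearest neighbor as a share of the range. Chance marks about 1 in 20 groups, and 6 of 31 were marked. Among the 6 no-color replicates, the highest Kcne3 was 684.4 CPM and the highest Kcnn4 was 308.4 CPM. Kcnh6 was at 0.0611 CPM in 1 no-color replicate, which is 1 read, and at 0 in the other 5. Among the 4 WT Ngn3 pools of 8 days, the highest Kcnh6 was 40.7 CPM and the highest Scn3b was 18.1 CPM. The highest Kcnmb1 in these pools was 20.3 CPM, in a pool of replicate 1.

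Kcnn3 was the member whose log2 fold change with Ngn3 differed between the days, higher by 2.96 at 8 than at 2 days (edgeR's quasi-likelihood test of the interaction, adjusted p = 0.0122), a call that was lost without GFP-only replicate 1 or 3 (adjusted p = 0.112 and 0.0629). The kind of control and the day cannot be told apart in this difference.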

How the results depend on the processing

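Of the member counts recomputed under another setting, 196 lay within 1.5 times the reported count and 49 did not. Blocking on the replicate number gave 3 members for 6S-A against WT Ngn3 at 2 days (0 without it), 14 for 6S-A Ngn3 against no-color (9 without it), 19 and 7 for the change with time in Ngn3 and control cells (6 and 3 without it) and 3 for the Ngn3 effect between days (1 without it), and it moved no other member count by over 1.5 times. When a single technical repeat stood for each replicate, 15 members were called for WT and 16 for 6S-A Ngn3 against GFP only, 1 between the forms at 2 days and 3 for WT Ngn3 at 8 days, and the log2 fold change with 6S-A Ngn3 of Kcna2 changed sign (to -1.90). Without a filter on low counts 1 member differed between the forms at 2 days, and 16 and 20 were called for WT and 6S-A Ngn3 at 8 days. DESeq2's own test called 2 between the forms at 2 days. Against each form's own no-color group 2 and 4 members were called at 8 days, and 6 and 7 when the replicate block was added, a setting chosen after seeing the data. The cause was not tested for any of these changes. Counts in this paragraph are given without the share of all genes and are not read as results about the members.

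Leaving out each replicate in turn gave 21 to 29 members for WT and 31 to 37 for 6S-A Ngn3 at 2 days, 3 to 8 and 4 to 9 at 8 days, 3 to 8 for Ngn3 cells and 0 to 4 for control cells with time, 0 to 2 for the Ngn3 effect between days, and 0 throughout for the other comparisons. For WT Ngn3 at 8 days the count was 3 without WT replicate 1 or 2, no-color 6S-A replicate 3 or no-color WT replicate 1. For 6S-A Ngn3 it was 4 without 6S-A replicate 1, no-color 6S-A replicate 2 or 3 or no-color WT replicate 1, and 5 without no-color 6S-A replicate 1 or no-color WT replicate 2 or 3. The count for Ngn3 cells was 3 without replicate 1 or 3 of either form at 2 days, that for control cells was 0 without GFP-only replicate 1 and 1 without replicate 3, and that for the Ngn3 effect, Kcnn3, was 0 without GFP-only replicate 1 or 3.

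With limits of 1 and 5 CPM in place of 2 CPM, a single pool held a median of 30 and 13.5 members with GFP only, 42 and 22 with the wild-type form and 42.5 and 26 with 6S-A Ngn3 at 2 days. At 8 days these medians were 37.5 and 19.5 in WT Ngn3 cells, 40 and 23.5 with 6S-A Ngn3, 22.5 and 10.5 in no-color WT and 24 and 11 in no-color 6S-A cells. Depth limits the values of 8 days most, where 3 reads correspond to up to 1.73 CPM.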

Other observations

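Of 42 partner genes of the channels tested at 8 days, 1 was higher in the WT Ngn3 cells (0.741% of all genes were) and 3 in the 6S-A Ngn3 cells (1.37% of all genes) at an adjusted p under 0.05 (quasi-likelihood test in edgeR). Lrrc38, the auxiliary subunit of the BK channel, passed with both forms (log2 fold change 7.89 and 7.36), and Abcc8 and the endoplasmic reticulum Ca2+ pump Atp2a3 passed with 6S-A Ngn3 (7.58 and 3.52). Abcc8 was at 87.1, 13.8 and 0 CPM with WT Ngn3 and at 126.3, 23.97 and 0.927 CPM with 6S-A Ngn3 at 8 days, so that replicate 3 had little or none in either group. Kcnip3 showed the same order of replicates, at 22.4, 2.90 and 0 CPM with WT Ngn3 and 20.5, 2.00 and 0 CPM with 6S-A Ngn3. Replicate 3 of 8 days was the replicate of passage 5, and the part of passage was not tested. Of a list of endocrine genes, 12 of 14 tested were higher with WT and 14 of 14 with 6S-A Ngn3 at 2 days (6.56% and 9.43% of all genes were). At 8 days 5 and 7 of 14 were higher (0.741% and 1.37% of all genes).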
